A study of Mus musculus with 12 samples.

Results

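The genes described here are 9 ligands and receptors of the glial cell line-derived neurotrophic factor (GDNF) family and of the neurotrophins: the ligand genes Gdnf, Nrtn and Bdnf, the co-receptor genes Gfra1 and Gfra2, and the receptor genes Ret, Ngfr, Ntrk2 and Ntrk3. They were chosen by gene symbol, and all 9 were found among the 23077 genes of the expression table. All 9 also passed the filter on low values, which left 14207 genes in the tests.

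The RNA came from primary mouse embryonic fibroblasts carrying the Hb9::GFP reporter, taken while they were being converted to induced motor neurons. Cells of every group, the controls included, were infected with a retrovirus for Ngn2, Isl1 and Lhx3 joined by 2A peptides, which is the mixture called NIL. RISDD cells (3 libraries) also received HRAS(G12V), a constitutively active RAS, placed before an internal ribosome entry site (IRES) that was followed by SNAP-p53DD, a dominant-negative p53 fragment fused to a SNAP tag. SDDIR cells (2 libraries) received the same elements with SNAP-p53DD before the IRES and HRAS(G12V) after it. SDD cells (3 libraries) received SNAP-p53DD with no HRAS. NIL cells (3 libraries) received the conversion factors alone. All cells were collected 4 days after infection, following a change on day 3 to N3 medium. That medium itself contained BDNF and GDNF protein, as well as CNTF and FGF, in every group. RepSox, which inhibits the TGF-beta type I receptor kinase, was present from day 3 in every group except NIL, and the sort took live single cells in NIL and SNAP-positive cells in the other groups. In comparisons with NIL, the construct, RepSox and the sort therefore cannot be told apart. These are sorted populations in bulk, so fewer cells expressing a gene and less RNA per cell cannot be told apart either. Nothing in the labels says that replicates A to C were separate cultures, so the p-values measure the spread between these samples, which may be technical.

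GDNF and neurturin (the product of Nrtn) are secreted ligands. GDNF binds mainly the lipid-anchored co-receptor GFRα1, neurturin binds mainly GFRα2, and each complex then activates the receptor tyrosine kinase RET. BDNF activates the receptor tyrosine kinase TrkB (Ntrk2), and the related neurotrophin NT-3 activates TrkC (Ntrk3), while the p75 neurotrophin receptor (Ngfr) binds all mature neurotrophins and their precursors. Both families are known for supporting the survival and axon growth of motor neurons, and RAS-MAPK signalling is one of the routes that RET and the Trk receptors use.

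Values are normalized counts, that is, reads per gene multiplied by 1 constant per library (0.614 to 1.24), so they can be compared between libraries for a gene but not between genes of different length. The libraries held 14872639 to 29815073 reads assigned to genes. Trp53, whose row takes in the delivered p53DD, averaged 37612 ± 4562 in SDD cells and 3201 ± 419 in NIL cells (SD, n = 3 each). The Hras row, which may or may not take in the delivered HRAS, had 1234, 1093 and 1088 in RISDD cells, 911 and 933 in SDDIR cells, 829.9, 905 and 981 in SDD cells and 1238, 1129 and 2342 in NIL cells, so it does not check the HRAS labels. No Hras comparison passed as reported, though Hras was lower in SDD than in NIL cells under 8 of 22 alternatives, and higher in RISDD than in SDD and SDDIR cells without NIL replicate C (adjusted p = 0.00591 and 0.0367). Isl1, one of the delivered factors, was lower in SDDIR than in SDD cells (log2 change -0.63, limma adjusted p = 0.0460), a call lost under 12 of 22 alternatives. Neurog2 (the Ngn2 gene) had 39669 and 52578.5 normalized counts in SDDIR cells and 60593, 79075 and 73575 in SDD cells. Lhx3 had 70972 and 96814 in SDDIR cells and 103782, 136750 and 130381 in SDD cells. Neither passed as reported. Of the 5 delivered factors, 3 were lower in SDDIR than in SDD cells without NIL replicate C and in a fit of those groups alone. Over all 14207 genes, 3283 and 2956 were lower in these fits. NIL replicate C stood apart: 0.537% of its reads were mitochondrial, against 2.60% to 4.04% in the other 10 libraries, and its root mean square log2 difference from the nearest library of its group was 1.19, against 0.490 to 0.640 elsewhere. NIL replicate C also held more of the conversion factors. Neurog2 had 167282 normalized counts there, against 59695 and 58398.5 in NIL A and B. Lhx3 had 258391 against 100451 and 102271, and Isl1 163542 against 106246 and 112049. The part of this difference in the comparisons with NIL was not tested. Of 11 motor neuron markers, Chat was at 0 in all 11 libraries, and all 10 fibroblast markers were above 0 in every group. Changes below are log2 differences on the log2(value + 1) scale, fitted with limma over all genes and groups, with their 95% intervals. A gene is called higher or lower where the Benjamini-Hochberg adjusted p over the 14207 genes is under 0.05.

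RefSeq promoter windows (GRCm38.p6, 250 bases before to 50 bases after a transcription start) were matched for 6 of the 9 genes, 13 windows in all, of which 7 belong to Bdnf. The windows of 3 genes are shown because Gfra1 had the highest absolute change among the 9 genes, Ngfr was lower in RISDD, SDDIR and SDD cells than in NIL cells, and Bdnf was among the genes higher in RISDD cells. Capitals mark matches on either strand to one of 8 motifs: an E-box spelled CAGATG, another E-box spelled CATATG, the homeodomain core TAATTA, the AP-1 site TGANTCA, the CRE site TGACGTCA, the ETS site CCGGAAG, the EGR site GCGTGGGCG and the GC box GGGCGG.
Gfra1, chr19:58455349-58455648, minus strand: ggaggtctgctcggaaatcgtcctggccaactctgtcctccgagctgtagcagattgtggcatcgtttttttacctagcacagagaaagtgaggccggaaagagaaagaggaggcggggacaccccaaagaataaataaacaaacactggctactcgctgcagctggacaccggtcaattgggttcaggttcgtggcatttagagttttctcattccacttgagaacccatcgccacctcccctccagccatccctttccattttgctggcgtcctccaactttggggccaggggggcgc
Ngfr, chr11:95587649-95587948, minus strand: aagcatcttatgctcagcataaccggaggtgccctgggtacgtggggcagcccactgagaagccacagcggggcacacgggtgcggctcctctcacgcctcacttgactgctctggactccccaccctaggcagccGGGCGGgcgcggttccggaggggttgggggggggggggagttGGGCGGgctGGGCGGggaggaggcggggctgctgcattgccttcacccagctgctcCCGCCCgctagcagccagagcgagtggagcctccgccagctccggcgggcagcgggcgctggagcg
Bdnf, window 2 of 7, chr2:109676782-109677081, plus strand: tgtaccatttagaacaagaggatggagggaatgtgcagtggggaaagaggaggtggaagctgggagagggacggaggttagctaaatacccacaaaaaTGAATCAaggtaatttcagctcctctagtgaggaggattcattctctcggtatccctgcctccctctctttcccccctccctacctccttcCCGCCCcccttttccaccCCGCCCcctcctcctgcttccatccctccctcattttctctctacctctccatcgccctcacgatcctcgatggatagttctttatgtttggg
The Gfra1 window held no match. The Ngfr window held 4 matches to the GC box GGGCGG, a hexamer present in 35.7% of the 32851 promoter windows of the table. The Bdnf window held 2 GC boxes and 1 match to TGANTCA, listed above as the AP-1 site, in which N is any base. Here that base is A, so this match alone does not show an AP-1 site. The window was picked among the 7 because it has this match, so the share of all windows with one, 7.81%, is no yardstick. Of the other Bdnf windows, 3 and 4 each held an E-box CATATG, 4 also a GC box, and 7 an E-box CAGATG. Windows 1, 5 and 6 held no match. These are letter matches and describe no binding.

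Among the ligands, Gdnf was lower in both HRAS groups than in SDD cells, Bdnf was higher in RISDD cells, and Nrtn passed no test as reported. Gdnf (ENSMUSG00000022144.5) had 50.7, 109 and 98.8 normalized counts in RISDD replicates A, B and C, 35.6 and 39.1 in SDDIR replicates A and B, 186, 175 and 228 in SDD cells and 154, 198 and 178 in NIL cells. All 5 HRAS libraries lay below all 6 libraries without HRAS. Against SDD cells, Gdnf fell 5.12-fold in SDDIR cells (log2 change -2.36, 95% interval -3.05 to -1.66, limma adjusted p = 5.28e-04) and 2.37-fold in RISDD cells (log2 change -1.24, interval -1.86 to -0.62, limma adjusted p = 0.00465). SDD and NIL cells did not differ beyond their spread (0.15, interval -0.47 to 0.77). The RISDD and SDDIR values did not overlap, but their difference missed the threshold (1.11, interval 0.42 to 1.81, limma adjusted p = 0.0509), and it passed without NIL replicate C (adjusted p = 0.0193), without RISDD replicate A, at a minimum value of 50, in a fit of those groups alone and with both count tests.

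Bdnf (ENSMUSG00000048482.15) had 949, 1122 and 944 normalized counts in RISDD cells, 617 and 607 in SDDIR cells, 513, 588 and 417 in SDD cells and 457, 548 and 306 in NIL cells. The 3 RISDD libraries were the highest, and the ranges of SDD and NIL cells overlapped. RISDD cells averaged 1005 ± 102 and SDD cells 506 ± 85.6 (SD, n = 3 each), a 2.00-fold rise in RISDD cells (log2 change 1.0, interval 0.53 to 1.46, limma adjusted p = 0.00307). In SDDIR cells the change from SDD cells was 0.29 (interval -0.23 to 0.81) and did not pass. The difference between RISDD and SDDIR cells was 0.71 (interval 0.19 to 1.23, limma adjusted p = 0.0883). It passed under 4 of 22 alternatives, among them the fit without NIL replicate C (adjusted p = 0.00542) and that with the replicate letter as a block (adjusted p = 0.0185).

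Nrtn (ENSMUSG00000039481.6) was read at low depth: 17.3, 4.04 and 7.90 normalized counts in RISDD cells, 20.3 and 17.8 in SDDIR cells, 9.02, 15.5 and 22.7 in SDD cells and 17.1, 15.6 and 68.9 in NIL cells. Its lowest value rests on 4 reads and its highest, in NIL replicate C, on 71. The interval of each comparison between groups was wide, for example -2.19 to 0.69 for RISDD against SDD cells and -2.25 to 0.63 for SDD against NIL cells. Each of these intervals takes in no change as well as large falls, so neither can be set aside.

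**Figure D1:**
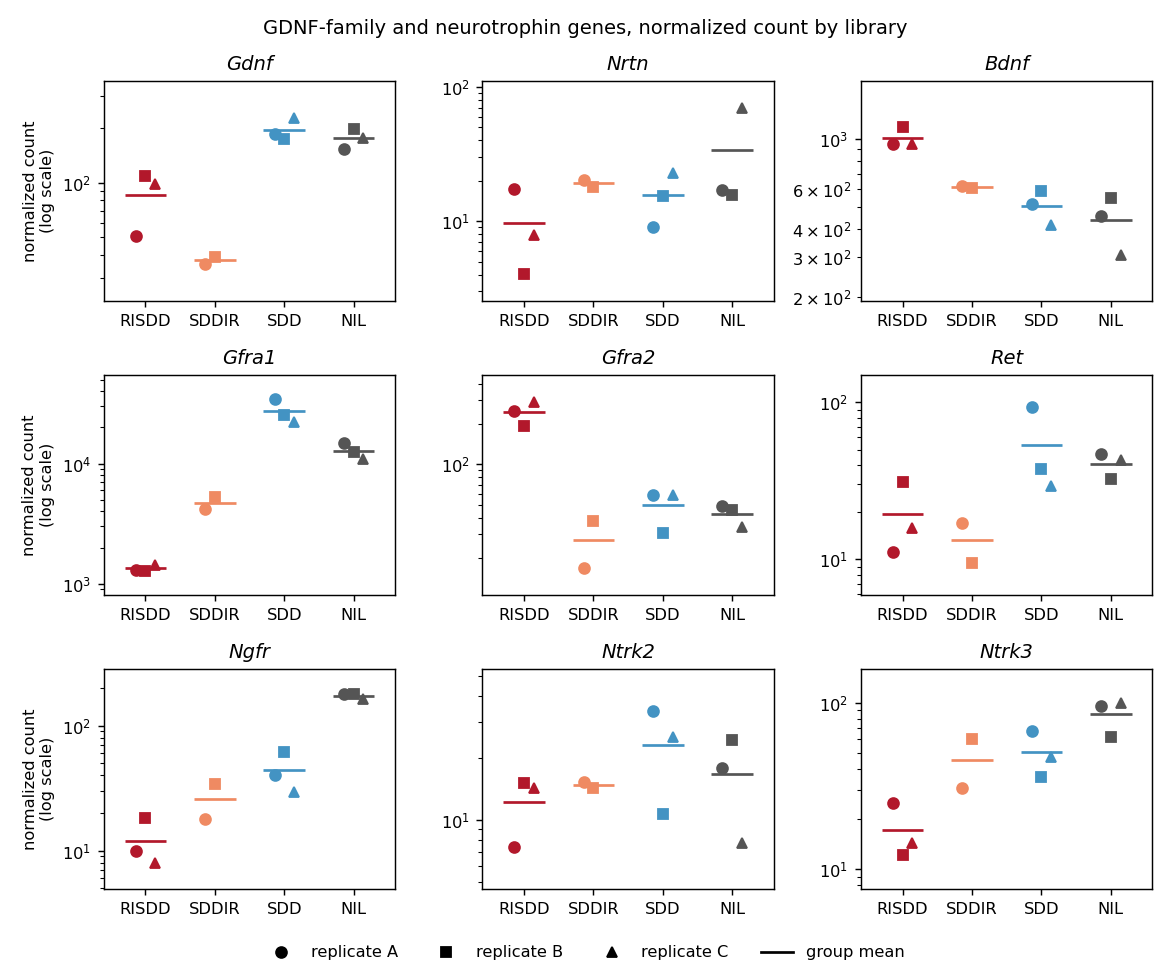
Normalized counts (log axis) of the 9 genes in each library of the 4 groups; symbols mark replicates and lines group means. Gfra1 lies between 1289 and 1427 in RISDD cells and between 22368 and 34207 in SDD cells, whereas Gfra2 lies between 194 and 291 in RISDD cells and between 30.9 and 59.6 in SDD cells.

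The co-receptors changed in opposite directions in RISDD cells. Gfra1 (ENSMUSG00000025089.16) had 1309, 1289 and 1427 normalized counts in RISDD cells, 4226 and 5232 in SDDIR cells, 34207, 25538 and 22368 in SDD cells and 14822, 12581 and 10916 in NIL cells. The 4 groups did not overlap in any pair, and their order was SDD, NIL, SDDIR and RISDD cells, from high to low. SDD cells averaged 27371 ± 6129 and NIL cells 12773 ± 1960.1 (SD, n = 3 each), a 2.13-fold rise in SDD cells (log2 change 1.09, interval 0.70 to 1.47, limma adjusted p = 0.00300). Without NIL replicate C this change was 0.98. Against SDD cells, Gfra1 fell 5.73-fold in SDDIR cells (log2 change -2.52, interval -2.95 to -2.09, limma adjusted p = 2.99e-05) and 20.1-fold in RISDD cells (log2 change -4.33, interval -4.71 to -3.94, limma adjusted p = 9.18e-08). RISDD cells were also 3.51-fold below SDDIR cells (log2 change -1.81, limma adjusted p = 6.31e-04). All of these calls held under the 22 alternatives tried for each.

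Gfra2 (ENSMUSG00000022103.11) had 249.8, 194 and 291 normalized counts in RISDD cells, 16.9 and 37.9 in SDDIR cells, 58.6, 30.9 and 59.6 in SDD cells and 48.8, 45.7 and 34.0 in NIL cells. Every RISDD library lay above every library of the other groups, which overlapped in each pair. RISDD cells averaged 245 ± 48.5 and SDD cells 49.7 ± 16.3 (SD, n = 3 each), a 4.98-fold rise in RISDD cells (log2 change 2.32, interval 1.52 to 3.12, limma adjusted p = 4.55e-04). SDDIR cells differed from SDD cells by -0.88 (interval -1.77 to 0.01, limma adjusted p = 0.153). Set directly against SDDIR cells, RISDD cells were 9.18-fold higher (log2 change 3.20, interval 2.31 to 4.09, limma adjusted p = 0.00137), and this call held under all 22 alternatives.

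Because Gfra1 and Gfra2 moved apart, the reads of Gfra2 were expressed as a share of the reads of both genes. This share was 16.0%, 13.1% and 16.9% in RISDD replicates A, B and C, 0.399% and 0.720% in SDDIR cells, 0.171%, 0.121% and 0.266% in SDD cells and 0.328%, 0.362% and 0.310% in NIL cells. The 95% Wilson intervals, which cover counting error only, ran from 11.5% to 18.6% over the RISDD libraries and from 0.0857% to 1.01% over the other 8. It is a share of reads, not of molecules, since the transcripts differ in length, and it restates the fits of the 2 genes, so it was given no test. Gfra1 reads remained the majority in every library.

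**Figure D2:**
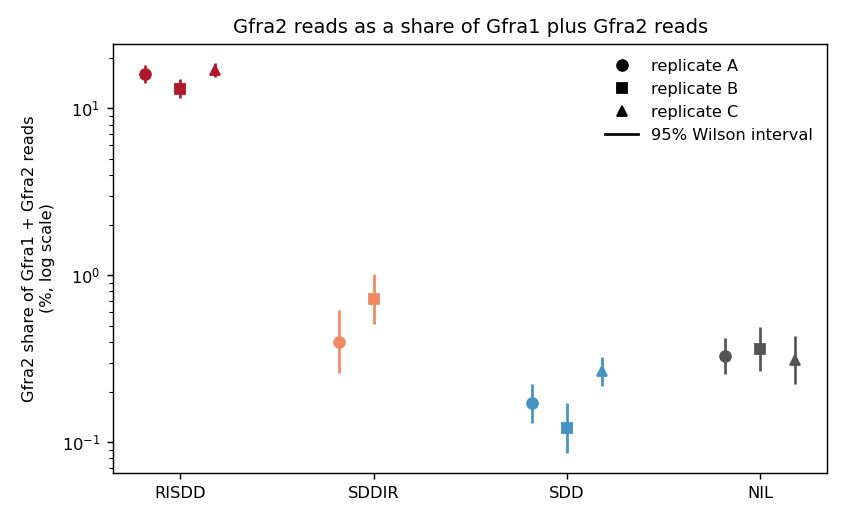
Gfra2 reads as a percentage of Gfra1 plus Gfra2 reads (log axis) in each library, with 95% Wilson intervals. The 3 RISDD libraries lie between 13.1% and 16.9%, and the other 8 between 0.121% and 0.720%.

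Ret (ENSMUSG00000030110.14), the shared signalling receptor of the GDNF family, had 11.1, 31.3 and 15.8 normalized counts in RISDD cells, 16.9 and 9.48 in SDDIR cells, 93.6, 37.7 and 29.5 in SDD cells and 47.2, 32.3 and 42.7 in NIL cells. RISDD and SDD values overlapped, and SDD replicate A held over 2 times as many as either other SDD library. Ret was lower than in SDD cells in SDDIR cells (log2 change -1.81, interval -3.05 to -0.57, limma adjusted p = 0.0407) and in RISDD cells (log2 change -1.36, interval -2.47 to -0.25, limma adjusted p = 0.0495). Both calls lay near the threshold. The SDDIR call was lost in 8 of 21 alternatives, with adjusted p of 0.0533 to 0.264, among them the fits without NIL A, SDD A, SDD B, RISDD C, SDDIR A or SDDIR B. The RISDD call was lost in 13 of 21, with adjusted p of 0.0510 to 0.193, among them the fits without NIL A, NIL B, SDD A, SDD B, RISDD A, RISDD C, SDDIR A or SDDIR B.

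Of the neurotrophin receptors, Ngfr was lower in SDD than in NIL cells and lower again in RISDD cells, Ntrk3 was lower in RISDD cells, and Ntrk2 passed no test. Ngfr (ENSMUSG00000000120.7) had 9.89, 18.2 and 7.90 normalized counts in RISDD cells (8, 18 and 10 reads), 17.8 and 34.4 in SDDIR cells, 40.6, 61.9 and 29.5 in SDD cells and 177, 178 and 162 in NIL cells. NIL cells stood above all other libraries, and SDDIR cells overlapped with both RISDD and SDD cells. Ngfr fell 4.03-fold in SDD cells against NIL cells (log2 change -2.01, interval -2.87 to -1.15, limma adjusted p = 0.00704; -2.06 without NIL replicate C) and 3.50-fold in RISDD cells against SDD cells (log2 change -1.81, interval -2.67 to -0.94, limma adjusted p = 0.00357). SDDIR cells differed from SDD cells by -0.74 (interval -1.71 to 0.23) and RISDD cells from SDDIR cells by -1.07 (interval -2.03 to -0.10, limma adjusted p = 0.163), neither of which passed. The 10 Schwann and neural crest markers, a lineage in which Ngfr is abundant, summed to 69.4 to 121 normalized counts in SDD libraries and 203 to 402 in NIL libraries. Of 7 tested members, 4 were lower in SDD than in NIL cells and none higher (8.26% and 9.32% of all genes). The count of lower members was 5 without NIL replicate C and 0 in a fit of those groups alone. Over all genes the lower count was 1174 as reported, 1955 without NIL replicate C and 326 in that fit. The same sums were 297 to 344 in RISDD and 149 to 192 in SDDIR libraries, above SDD. Of the 7 tested members, however, 2 were higher and 1 lower in RISDD than in SDD cells (20.0% and 22.6% of all genes), with a median log2 change of -0.63. There was 1 higher without any 1 SDD or RISDD library, and 0 lower without SDD A, SDD B or RISDD A. Against NIL cells, 1 was higher and 4 lower in RISDD cells (23.2% and 23.5% of all genes), with a median of -1.69. Mbp, a myelin protein gene, averaged 235 normalized counts in RISDD and 17.6 in SDD cells and so made up most of the RISDD sums. The part of these markers in the Ngfr difference was not tested.

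Ntrk3 (ENSMUSG00000059146.13), the NT-3 receptor, had 24.7, 12.1 and 14.2 normalized counts in RISDD cells, 30.5 and 60.5 in SDDIR cells, 67.7, 35.8 and 47.3 in SDD cells and 95.2, 62.4 and 99.97 in NIL cells. The RISDD libraries were the 3 lowest. Ntrk3 fell 2.87-fold in RISDD cells against SDD cells (log2 change -1.52, interval -2.39 to -0.66, limma adjusted p = 0.00947). SDDIR and SDD cells overlapped and differed by -0.17 (interval -1.14 to 0.79), a sign that turned under 3 alternatives. The change of SDD against NIL cells, -0.78 (interval -1.64 to 0.09), and that of RISDD against SDDIR cells, -1.35 (interval -2.32 to -0.38, limma adjusted p = 0.0815), did not pass, and the last one passed without NIL replicate C (adjusted p = 0.0347).

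Ntrk2 (ENSMUSG00000055254.16), the BDNF receptor, had 7.42, 15.2 and 14.2 normalized counts in RISDD cells, 15.2 and 14.2 in SDDIR cells, 33.8, 10.6 and 25.2 in SDD cells and 17.9, 24.5 and 7.76 in NIL cells. All groups overlapped, at 6 to 41 reads a library. The interval for RISDD against SDD cells was -1.98 to 0.41, and for SDD against NIL cells -0.75 to 1.63. The row sums all Ntrk2 transcripts, which encode a full-length kinase and truncated receptors.

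**Figure D3:**
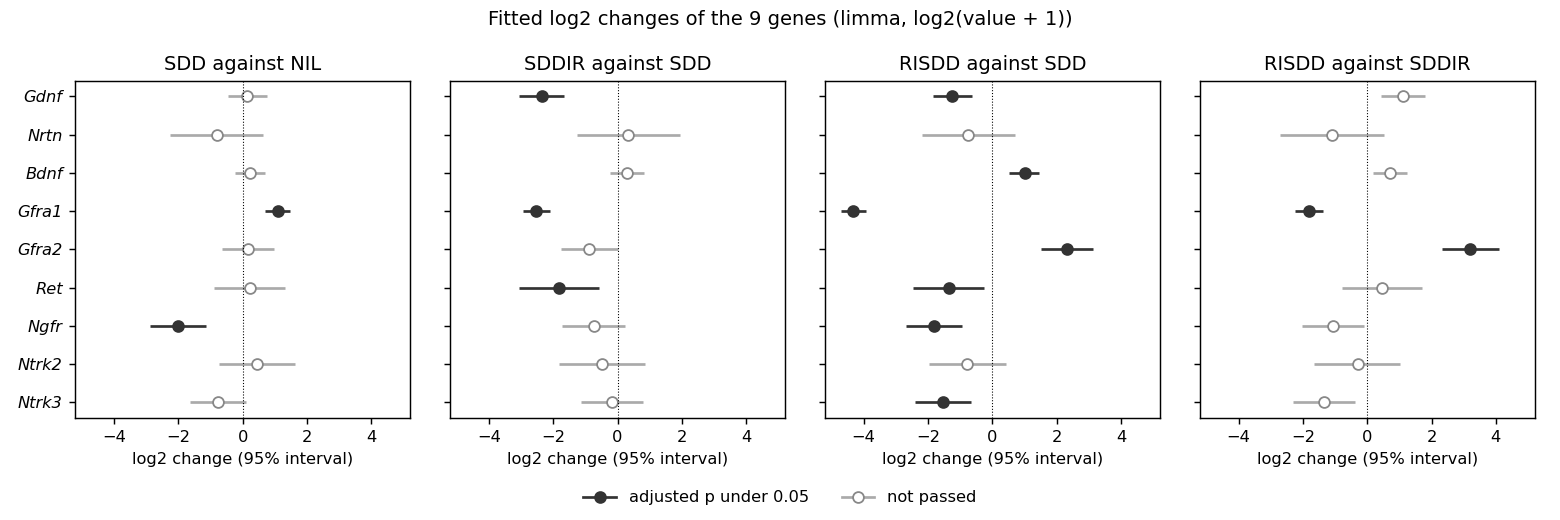
Log2 changes of the 9 genes with 95% intervals in the 4 planned comparisons; filled points have a limma adjusted p under 0.05. In RISDD against SDD cells 7 of 9 are filled, from -4.33 for Gfra1 to 2.32 for Gfra2.

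Counted over the 9 genes, 1 was higher and 1 lower in SDD than in NIL cells, where 17.6% of all tested genes were called, 9.32% higher and 8.26% lower. In SDDIR against SDD cells 3 were lower (Gdnf, Gfra1 and Ret) and 0 higher, with 22.5% of all genes called, 13.9% lower and 8.66% higher. The table-wide split in this comparison was 1230 higher and 1969 lower as reported, and 1718 higher and 1790 lower after quantile normalization. The same scaling turned the majority direction in SDD against NIL cells (1324 higher and 1174 lower as reported, 1239 and 1425 after it) and in RISDD against SDD cells (2840 higher and 3206 lower as reported, 3345 and 2941 after it). In RISDD against SDD cells 5 were lower (Gfra1, Ngfr, Ntrk3, Ret and Gdnf) and 2 higher (Gfra2 and Bdnf), with 42.6% of all genes called, 22.6% lower and 20.0% higher. RISDD against SDDIR cells had 1 lower and 1 higher, with 9.69% of all genes called, 5.05% lower and 4.64% higher. Without NIL replicate C 5 of the 9 passed, where 4186 of all genes did, against 1377 as reported. The median log2 change of the 9 genes was 0.17, -0.74, -1.24 and -0.30 in these 4 comparisons, against 0.05, 0.01, 0.02 and 0.01 over all tested genes. The comparisons of SDDIR and of RISDD with SDD cells share the same 3 SDD libraries.

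Comparisons with NIL cells, added after the planned values were seen, gave 4 lower and 2 higher genes in RISDD cells, where 46.7% of all genes were called (23.5% lower and 23.2% higher), and 3 lower and 0 higher in SDDIR cells, where 33.5% were called (18.2% lower and 15.3% higher). RISDD cells had 14.1-fold less Ngfr, 9.45-fold less Gfra1, 4.93-fold less Ntrk3 and 2.13-fold less Gdnf than NIL cells, with limma adjusted p from 4.19e-07 to 0.00925. Gfra2 was 5.60-fold and Bdnf 2.35-fold higher in RISDD than in NIL cells (limma adjusted p = 3.08e-04 and 8.73e-04). In SDDIR cells Ngfr was 6.73-fold, Gdnf 4.61-fold and Gfra1 2.69-fold below NIL cells, so Gfra1 was below NIL cells in both HRAS groups although it was above them in SDD cells. Nrtn in RISDD against NIL cells (log2 change -1.56, limma adjusted p = 0.0721) did not pass, but did under 3 of 21 alternatives. Without NIL replicate C that change was -0.89. Ret in SDDIR against NIL cells (log2 change -1.59, limma adjusted p = 0.0506) did not pass, but did under 4 of 21.

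The rest of both families was described from a list of 12 other ligands and receptors, all in the table, of which 10 were tested. The untested genes were Gfral and Pspn, each with at most 2 reads in any library. In RISDD against SDD cells 7 of 10 were lower and 2 higher (22.6% and 20.0% of all genes), with a median log2 change of -1.89. The count of higher genes was 1 without SDD A, SDD B or RISDD B. That of lower genes was 5 without SDD A, where Sorcs3 was not tested, or without RISDD C. The GFRα3 co-receptor gene Gfra3 had 8.66, 2.02 and 1.58 normalized counts in RISDD cells (7, 2 and 2 reads), 19.5 and 32.0 in SDDIR cells, 1064, 1039 and 519.7 in SDD cells and 256, 327 and 354 in NIL cells. It was lower than in SDD cells in RISDD cells (log2 change -7.62, limma adjusted p = 1.17e-06) and in SDDIR cells (log2 change -5.00, limma adjusted p = 1.56e-04). With so few reads the size in RISDD cells varied, from -8.22 to -5.94 over the 22 alternatives. It was -5.94 at a pseudocount of 10, -7.84 at a pseudocount of 0.5 and -7.88 with DESeq2.

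Its ligand artemin (Artn) had 17.3, 47.5 and 25.3 normalized counts in RISDD cells and 152, 84.1 and 108 in SDD cells, a 3.93-fold fall in RISDD cells (limma adjusted p = 0.00326). Gfra4, the persephin co-receptor gene, was 3.50-fold lower in RISDD cells, with 22.3, 19.2 and 19.0 normalized counts against 84.6, 63.8 and 71.9 in SDD cells (limma adjusted p = 2.17e-04). Gfra1, Gfra3 and Gfra4 were thus lower in RISDD than in SDD cells, and Gfra2 was the 1 of these 4 co-receptor genes that was higher.

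The neurotrophin genes also differed in direction. Ntf3, the gene of NT-3, had 3.71, 5.06 and 3.95 normalized counts in RISDD cells, 7.62 and 7.11 in SDDIR cells, 54.1, 23.2 and 33.2 in SDD cells and 31.7, 32.3 and 49.5 in NIL cells. It was 6.86-fold lower in RISDD and 4.27-fold lower in SDDIR than in SDD cells (limma adjusted p = 2.33e-04 and 0.00632). Ntf5, the gene of NT-4, had 28.4, 41.5 and 32.4 normalized counts in RISDD cells and 3.38, 4.83 and 14.1 in SDD cells (limma adjusted p = 0.0166, lost without SDD A, SDD B or RISDD B).

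Among the sortilin-type receptors, which bind neurotrophin precursors, Sort1 had 2224, 2003 and 1898 normalized counts in RISDD cells, 4932 and 4937 in SDDIR cells, 7540.01, 6572 and 6644 in SDD cells and 7926, 6696 and 5436 in NIL cells. It was 3.39-fold lower in RISDD than in SDD cells (limma adjusted p = 5.94e-06), and 2.42-fold lower in RISDD than in SDDIR cells (limma adjusted p = 0.00134). Sorcs2 was 3.68-fold higher in RISDD than in SDD cells, with 2245, 2877 and 2319.7 normalized counts against 652, 655 and 704 in SDD cells (limma adjusted p = 8.90e-05). It was also lower in SDD than in NIL cells, which had 1418, 1629.8 and 2437 (limma adjusted p = 0.00338). Sorcs3 and Sorcs1 were lower in RISDD than in SDD cells (limma adjusted p = 0.0124 and 0.0218), and neither call held without RISDD replicate C, nor that of Sorcs1 without SDD replicate A. Sorcs3 was higher in SDD than in NIL cells, with 48.5, 17.4 and 41.8 normalized counts against 5.70, 1.12 and 5.82 in NIL cells (limma adjusted p = 0.0130, lost in a fit of those groups alone). Sorcs3 reached the filter's minimum value of 10 in SDD libraries only, so high SDD values were a condition of testing it. It was not tested with an SDD library left out or at a minimum value of 50, which left 18 alternatives. The same condition bears on its calls in the HRAS groups and on the list counts that include them. Gdf15 passed in none of the 4 planned comparisons.

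Over all genes, 1969 were lower and 1230 higher in SDDIR than in SDD cells, and 3283 and 3053 without NIL replicate C. Of the 10 tested ligands and receptors, 4 were lower and 1 higher in this comparison (13.9% and 8.66% of all genes). Without SDDIR replicate B, 2 were lower and 0 higher, and without NIL replicate C, 6 were lower.

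**Figure D4:**
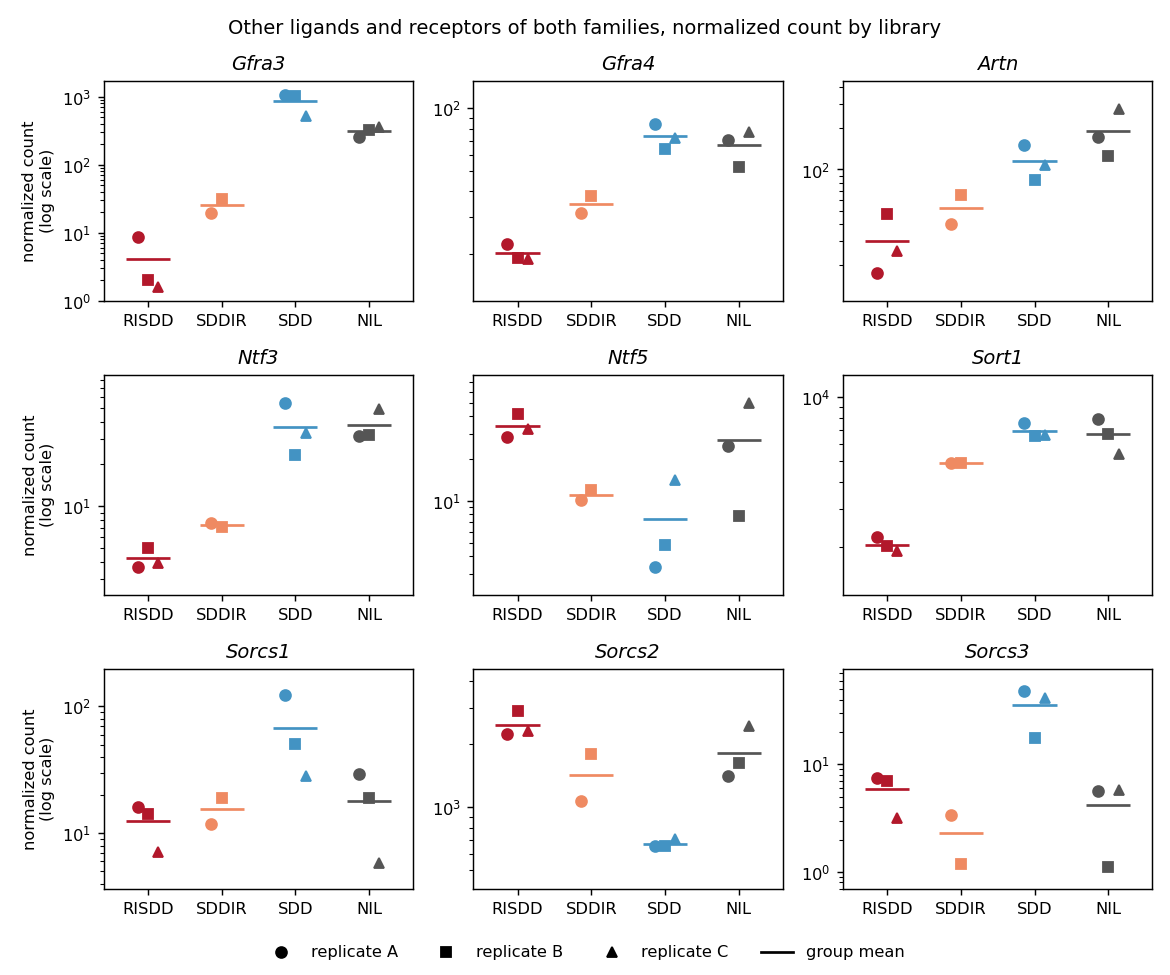
Normalized counts (log axis) of 9 further ligands and receptors of both families in each library; symbols mark replicates and lines group means. Gfra3 lies between 1.58 and 8.66 in RISDD cells and between 519.7 and 1064 in SDD cells, and Ntf3 between 3.71 and 5.06 in RISDD cells and between 23.2 and 54.1 in SDD cells.

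A second list held 27 genes of the alternative GDNF receptor NCAM, of adaptors that bind activated RET, Trk or p75 receptors, and of proteases that cut the ligand precursors. All were tested, and 8 were lower and 7 higher in RISDD than in SDD cells (22.6% and 20.0% of all genes), with a median log2 change of -0.18. Pcsk5, a proprotein convertase gene, had 39.6, 49.6 and 60.9 normalized counts in RISDD cells and 387, 218 and 243 in SDD cells, and Pcsk6, another, was 3.78-fold lower in RISDD cells. Gab1, a docking protein gene downstream of receptor tyrosine kinases, was 4.20-fold lower in RISDD and 2.55-fold lower in SDDIR than in SDD cells. Lingo1, whose protein joins p75 in the Nogo receptor complex, had 573, 542 and 482 normalized counts in RISDD cells, 303 and 391 in SDDIR cells and 107, 119.9 and 111 in SDD cells. Over all genes, 1969 were lower and 1230 higher in SDDIR than in SDD cells, and 3283 and 3053 without NIL replicate C. In this comparison 5 genes of the list were lower and 2 higher (13.9% and 8.66% of all genes). Without NIL replicate C 10 were lower and 4 higher, and without SDDIR replicate B 0 were higher. In SDD against NIL cells 6 were lower (8.26% of all genes) and 0 higher. In a fit of those groups alone 0 were lower, where 326 of all genes were, against 1174 as reported.

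Receptors for CNTF, another factor in the medium, were lower in both HRAS groups. CNTF signals through its own receptor CNTFR together with LIFR and gp130 (Il6st), and 3 of 7 genes of this list were lower than in SDD cells in RISDD and in SDDIR cells, a count that held under every alternative. Over all genes 22.6% were lower in RISDD and 13.9% in SDDIR cells. Cntfr had 43.3, 36.4 and 26.9 normalized counts in RISDD cells, 41.5 and 54.5 in SDDIR cells, 275, 189 and 207 in SDD cells and 249.8, 185 and 465 in NIL cells (limma adjusted p = 1.20e-04 for RISDD and 0.00221 for SDDIR against SDD cells). Lifr was 5.90-fold lower in RISDD and 4.06-fold lower in SDDIR than in SDD cells, and Il6st 3.15-fold and 2.72-fold. Clcf1, a ligand gene of the same receptor, was 5.81-fold higher in RISDD than in SDD cells, with 312, 414 and 628 normalized counts against 56.4, 86.1 and 82.3 in SDD cells (limma adjusted p = 7.22e-05).

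The gene with the profile most like each of the 9 was sought over the 11 libraries, among tested genes whose mean lay within 3-fold of the member's, by the root mean square difference of centred log2 values, where 0 is an identical profile. Gfra1 was closest to Capn6 and Smarca2, both at 0.43, where the median candidate was at 1.76. Gfra2 was closest to Kbtbd11 at 0.43 and Ube2ql1 at 0.50. Kbtbd11 had 56.9, 72.8 and 112 normalized counts in RISDD cells and 10.2 to 32.6 in the other 8 libraries. Bdnf was closest to Fbxo33 at 0.13 and Dgkh at 0.15, where the median candidate was at 0.62. Gdnf was closest to Epb41l4b at 0.33 and Maf at 0.36, and Ngfr to Zfp185 at 0.40 and Gpx3 at 0.44. Ntrk3 was closest to Aox1 at 0.31 and Nipal4 at 0.34, Ret to Cobl at 0.38 and Naprt at 0.40, Nrtn to Adra1b at 0.44 and Cacnb1 at 0.49, and Ntrk2 to Ccdc30 and Fgfbp3, both at 0.41. The libraries share their groups and their scaling, so these are descriptions of these libraries.

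Markers of cell types moved across the same groups. The 11 motor neuron markers summed to 1697 to 1823 normalized counts in RISDD libraries, 2879.7 to 3177 in SDDIR, 12393 to 26906 in SDD and 10187 to 15012 in NIL libraries, the same order of group ranges as Gfra1 apart from the overlap of SDD and NIL. Of the 8 tested, 7 were lower and 1 higher in RISDD than in SDD cells (22.6% and 20.0% of all genes), and 5 were lower in SDDIR than in SDD cells (13.9% of all genes). In SDD against NIL cells 5 were higher (9.32% of all genes), a count of 3 without NIL replicate C and 1 without SDD A or SDD C. Over all genes the higher count was 1324 as reported, and 2159, 734 and 641 in those fits. The RISDD against SDD counts of the lists below stand beside the same shares, 22.6% lower and 20.0% higher over all genes. The 10 fibroblast markers summed to 188264 to 204221 in RISDD, 234905 to 268531 in SDDIR, 632341 to 749593 in SDD and 819191 to 1324170 in NIL libraries, with 9 of 10 lower and 1 higher in RISDD than in SDD cells. The 11 pan-neuronal markers summed to 14189.7 to 15602 in RISDD, 6578 to 6730.3 in SDDIR, 7955 to 14689 in SDD and 3003 to 5546 in NIL libraries. The RISDD sums were mostly the neurofilament genes Nefl (8284 to 9411) and Nefm (3606 to 4066). Gene by gene, 5 of 10 tested were lower and 4 higher in RISDD than in SDD cells, with a median log2 change of -0.67, and 3 were lower without SDD A or RISDD A. Dcx, a gene of young neurons, had 1.58 to 19.8 normalized counts in RISDD and 644 to 1062 in SDD libraries. The 6 epithelial markers summed to 8717 to 12767 in RISDD, 2429.8 to 3769 in SDDIR, 63.9 to 72.2 in SDD and 915 to 1014 in NIL libraries, with Cdh1 at 0 in SDD cells and 6 of 6 higher in RISDD than in SDD cells. Leukocyte markers summed to 570.2 to 843 in RISDD, 337 to 491 in SDDIR, 255 to 621 in SDD and 931 to 4213 in NIL libraries. Of the 7 tested, 1 was higher and 2 were lower in RISDD than in SDD cells (1 lower without SDD B, SDD C, RISDD A or RISDD C). Pericyte and smooth muscle markers summed to 1054 to 1696 in RISDD, 1131 to 1836 in SDDIR, 4426 to 5235 in SDD and 10464 to 23543 in NIL libraries, with 3 of 5 tested lower and 1 higher in RISDD than in SDD cells. Endothelial markers summed to 496 to 601 in RISDD, 160.1 to 168 in SDDIR, 76.7 to 103 in SDD and 50.5 to 82.5 in NIL libraries. Of these, 2 of 3 tested were higher in RISDD than in SDD cells (1 without any 1 RISDD library), and Emcn was at 0 in RISDD, SDDIR and SDD cells. The 4 sensory neuron markers summed to 133 to 191 in RISDD, 33.2 to 72.0 in SDDIR, 194 to 771 in SDD and 164 to 433 in NIL libraries. Of 3 tested, 1 was lower and 0 higher in RISDD than in SDD cells. Without NIL replicate C 2 were higher, where 4550 of all genes were, against 2840 as reported. The part of these markers in the changes of Gfra1, Gfra2, Gdnf, Bdnf, Ngfr and Ntrk3 was not tested.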

How the data were processed

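The submitters' processing notes name Trim Galore 0.6.10, Salmon 1.10.3 and the build GRCm39. Not given in the sources used here are the tool behind gene-level sums and scaling and the use of strand. The authors deposited a signal, namely gene counts multiplied by 1 constant per library. At a tolerance of 0.001, 100% of values were whole multiples of 1 read, so reads were recovered. The heading SDDIR_B stood on a pair of identical columns, and 1 column was therefore not used; 1 SDDIR sample was not analysed here. Depth was 14872639 to 29815073 reads per library, and low counts limit the precision of Nrtn, Ntrk2, Ret and, outside NIL cells, Ngfr.

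Tests with limma 3.58.1 (R 4.3.3) took genes that reached 10 in 3 or more of the 11 libraries and ran on log2(value + 1), pseudocount 1, with intensity trend and robust moderation, all 4 groups in 1 fit, Benjamini-Hochberg adjustment over all tested genes and a threshold of 0.05. The settings changed one at a time were the scaling (upper-quartile, quantile), the pseudocount (0.5, 10), the filter (none, minimum value 50), moderation without trend or robustness, fitting the compared groups alone, the replicate letter as a block, edgeR 4.0.16 and DESeq2 1.42.0 on the recovered reads, and each library left out in turn. The fit was tested on simulated data. The 9 genes and the further lists were chosen with earlier results of these data known, and the tests of SDDIR or RISDD against NIL were added once the planned comparisons had been seen. Named are the 9 genes, 12 other ligands and receptors, from each of the other pathway lists at most 4 called genes per comparison by absolute change, the delivered factors, and the 2 genes most alike to each of the 9. Promoter windows are from RefSeq (GRCm38.p6), a different build from the deposited values, and carry no measurement. Some genes that these rules allow are left out, and their results are not reported here.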

Additional observations from a re-analysis of the deposited data

Results flagged for a closer look

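Among the 9 genes and the 3 pathway lists, 9 genes changed by different amounts in the 2 HRAS groups when each was set against SDD cells, by the test of that difference (RISDD against SDDIR cells, limma, adjusted over all 14207 genes). Both changes are measured from the same SDD libraries. Over all 14207 genes, 9.69% were called in this test, 5.05% lower and 4.64% higher. Called here were 1 lower and 1 higher of the 9 genes, and 2 lower of 10 tested other ligands and receptors. The second list had 2 lower and 2 higher of 27, and the CNTF and LIF list 1 higher of 7. Gfra2 changed by 2.32 in RISDD cells and by -0.88 in SDDIR cells on the log2 scale, a difference of 3.20 (adjusted p = 0.00137), with all 3 RISDD libraries above both SDDIR libraries. Gfra1 changed by -4.33 in RISDD cells and by -2.52 in SDDIR cells, a difference of -1.81 (adjusted p = 6.31e-04), with all 3 RISDD libraries below both SDDIR libraries. Gfra3 changed by -7.62 in RISDD cells and by -5.00 in SDDIR cells, a difference of -2.62 (adjusted p = 0.0145), which rests on 7, 2 and 2 reads in RISDD cells, was -1.36 at a pseudocount of 10 and was lost without RISDD B, RISDD C, SDDIR A or SDDIR B. Sort1 changed by -1.76 in RISDD cells and by -0.48 in SDDIR cells, a difference of -1.28 (adjusted p = 0.00134). Clcf1 changed by 2.54 in RISDD cells and by 0.77 in SDDIR cells, a difference of 1.76 (adjusted p = 0.00998), lost without SDDIR replicate A (adjusted p = 0.121). From the list of the alternative receptor, adaptors and proteases, Nradd, a p75-like receptor gene, changed by 1.54 in RISDD cells and by 0.55 in SDDIR cells, a difference of 1.0 (adjusted p = 0.00902), lost without SDDIR replicate A (adjusted p = 0.113). Ncam1 changed by -1.73 in RISDD cells and by -1.13 in SDDIR cells, a difference of -0.59 (adjusted p = 0.0200), and Furin, a proprotein convertase gene, by 1.19 in RISDD cells and by 0.10 in SDDIR cells, a difference of 1.1 (adjusted p = 0.0354). Shc3, an adaptor gene, changed by -0.91 in RISDD cells and by 0.12 in SDDIR cells, a difference of -1.03 (adjusted p = 0.0381). The calls of Ncam1, Furin and Shc3 were each lost when any 1 RISDD or SDDIR library was left out, with adjusted p of up to 0.171, 0.223 and 0.289. Those of Furin and Shc3 were also lost without SDD B or SDD C, and that of Shc3 without SDD A.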

How the results depend on the processing

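The calls of Gfra1 in all comparisons, of Gfra2, Bdnf and Ntrk3 in RISDD against SDD cells, of Gfra2 in RISDD against SDDIR cells, of Gdnf against SDD cells and of Ngfr in SDD against NIL and RISDD against SDD cells held under every alternative run for them. Ret changed sign in SDD against NIL cells without SDD A (-0.26), with values of -0.26 to 0.55 over left-out libraries. Ntrk3 in SDDIR against SDD cells changed sign after quantile normalization (0.13) and without SDD A (0.06) or SDDIR A (0.31), with values of -0.66 to 0.31 over left-out libraries. In SDDIR against NIL cells Ntrk2 changed sign without NIL A (0.07), NIL B (0.29) or SDDIR B (0.01), and Nrtn without NIL C (0.21), with values of -0.48 to 0.29 for Ntrk2 and -0.83 to 0.21 for Nrtn over left-out libraries. Hras in SDDIR against SDD cells changed sign without SDD A, with values of -0.03 to 0.09 over left-out libraries. None of these had passed. The table-wide count of called genes in SDD against NIL cells was 2498, 697 in a fit of those groups alone and 1226 to 4114 with a library left out, the highest without NIL C. In SDDIR against SDD cells it was 3199, 5361 in a fit of those groups alone and 1673 (without SDDIR A) to 6336 (without NIL C). In RISDD against SDDIR cells it was 1377, 4923 in a fit of those groups alone, 2258 with DESeq2 and 308 (without SDDIR A) to 4186 (without NIL C), and the count of the 9 genes was 2, and 5 in the fit of those groups alone, 5 with DESeq2 and 2 to 5 with a library left out. In SDDIR against NIL cells it was 4759, 1590 in a fit of those groups alone and 2347 (without SDDIR A) to 6868 (without NIL C). The cause was not tested. Leaving out an SDDIR library leaves 1, which is assumed to vary like the other groups. With the replicate letter as a block, 2777, 3359, 6301 and 1440 genes were called in the 4 planned comparisons, and 2, 3, 6 and 3 of the 9. The block ended the call of Ret in RISDD against SDD cells (adjusted p = 0.0602) and brought that of Bdnf in RISDD against SDDIR cells under the threshold (adjusted p = 0.0185). Deviations from the group means correlated at over 0.1 in 9 of 15 same-letter pairs of libraries and 1 of 30 others. Of the 11 libraries, 9 correlated best with their own letter. The others were RISDD C and SDDIR A, which correlated best with each other (0.14). With 2 SDDIR libraries the deviations of SDDIR A and B mirror each other, and which replicate the SDDIR_B heading holds is not settled. The check is therefore not informative for pairs with SDDIR libraries. Among NIL, SDD and RISDD libraries, same-letter pairs correlated at 0.05 to 0.27 and the other pairs at 0.04 or less. Same-letter libraries of these groups thus shared part of their spread. The labels do not say what a letter marks, and the source of this was not tested. The reported fit leaves the letter out, and the calls that differ with the block are those given above. Depth limits Nrtn, Ntrk2, Ngfr and Ret most: their values rest on as few as 4, 6, 8 and 8 reads.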
